A study of Mus musculus with 12 samples.

Results

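Expression of 38 genes of the primary cilium and of intraflagellar transport (IFT) was compared between medulloblastomas (MBs) of XRCC4/p53-deficient mice, granule neural progenitors (GNPs) and whole cerebellum. The genes were taken by name, and 36 of the 38 could be followed among the 18193 genes measured. Arl13b, a ciliary GTPase, and Rpgrip1l, a transition zone scaffold, were assigned no probe set of their own in the annotation used, and are not analysed here. The 36 comprised 10 genes of IFT-B, 6 of IFT-A, 2 of the dynein-2 motor, 4 ciliary membrane and cargo factors, the 2 EVC genes, 7 of the BBSome, and 5 of the transition zone and basal body.

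The MBs came from 8 Nestin-cre p53-/- Xrcc4-/- mice, 1 array per mouse (MB_630, MB_706, MB_794, MB_1187, MB_1197, MB_1206, MB_1207 and MB_1224). GNPs came from mice CGNP_2698 and CGNP_2705 and cerebellum from mice WC_2646 and WC_2647, labelled only as normal tissue. The control animals were described as matched to the tumor mice in age and genotype, with neither the alleles nor the ages given for these arrays, so whether the controls also lack p53 is not settled by the sources used here. Nestin-Cre deletes Xrcc4 in neural progenitors that express nestin, whereas p53 is absent from every cell of the tumor mice. The labels call the MBs tumor tissue, but 6 of the 8 tumor numbers also appear among MB cells kept in culture, so tissue and cultured cells cannot be told apart here. Levels are log2 values with a floor of 2.2, averaged over the probe sets of a gene, and a level is not compared between genes, because probe sets differ in brightness. Differences are log2 fold changes, log base 2. A gene was called higher or lower at a Benjamini-Hochberg adjusted p under 0.05 over all 18193 genes, from limma, two-sided.

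The primary cilium is a single antenna that projects from the older centriole of a resting or early-cycling cell. Its axoneme is built by IFT, in which kinesin-2 carries trains of IFT-B and IFT-A outward and dynein-2 carries them back. The transition zone at its base gates which proteins enter, and the BBSome carries membrane receptors out. In granule neural progenitors the response to Sonic hedgehog (SHH) passes through this organelle: the activator Smo accumulates in the ciliary membrane when SHH binds Ptch1, and Gli factors are processed at the ciliary tip. Hedgehog-driven MB in mice is known to depend on the cilium in a manner set by the driver mutation.

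Xrcc4, the gene targeted in the tumor mice, stood at 2.44 to 3.57 in the MBs, 3.57 to 4.19 in GNPs and 4.25 to 4.34 in cerebellum. Whether its probe sets lie in the deleted part was not examined. Tumor MB_706 stood apart in the array's control probe sets, where its 3′ minus 5′ log2 signal was 2.93 and that of the remaining MBs was 0.559 to 0.816 (normal brain 0.154 to 0.523). Without MB_706 no ciliary gene lost its call against GNPs, and 1, Ift27, lost it against cerebellum. The share of probe sets above a log2 level of 5 was 42.1% to 43.4% on all 12 arrays. Markers of granule progenitors averaged 10.02 to 10.5 in the MBs, 8.11 to 8.25 in GNPs and 5.19 to 5.26 in cerebellum. Among these markers Atoh1, Barhl1, Mki67 and Top2a were higher in the MBs than in either tissue. Pax6 (-1.09) and Zic1 (-0.29) were not called against GNPs. Against cerebellum Pax6 was not called (0.23) and Zic1 was lower (-0.36). Microglial markers were on average higher in the MBs (7.14 to 8.55, against 4.15 to 5.29 in GNPs and 5.80 to 5.98 in cerebellum). Of them, Csf1r and Cx3cr1 were not called against cerebellum (0.55 each). Astroglial markers were on average lower (4.37 to 6.43, against 8.02 in both GNP samples and 7.16 to 7.18 in cerebellum). Of these, Slc1a3 was not called against GNPs (-0.19), and Gfap went the other way against cerebellum (1.11, not called). The part of both marker lists in the results was not tested. In these bulk samples, fewer cells of a type and less RNA per cell cannot be told apart.

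Multiciliated ependymal cells, which express many of the same genes, were checked through 16 markers. Their mean log2 level was 2.33 to 2.50 in the MBs, 2.68 to 2.86 in GNPs and 2.40 to 2.47 in cerebellum, and 13, 10 and 12 of the 16 lay near the floor, under 2.5 on average, in MBs, GNPs and cerebellum. Foxj1, the master regulator of motile cilia, was at 2.44 in the MBs, at 5.07 and 3.19 in GNPs, and at 2.50 and 2.69 in cerebellum. Of the 16, 4 were lower in the MBs than in GNPs (25%, against 18.6% of all genes) and none higher. Between the normal tissues, 3 were higher in GNPs than in cerebellum (18.8%, against 14.9%) and none lower. Rsph1 stood at 3.01 to 3.10 in the MBs, 6.05 and 5.59 in GNPs, and 3.59 and 4.29 in cerebellum. Most markers thus lay near the floor in all 3 groups, with some above it in GNPs, and their part in the results was not tested.

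Evc and Evc2, both higher in the MBs, lie head to head on chromosome 5. Their annotated starts are 1597 bases apart and their transcripts run in opposite directions (RefSeq, GRCm38.p6). The 250 bases before each start are shown because both genes moved together in the MBs, read 5′ to 3′ along each gene, with nothing capitalised.
Evc (chr5:37336882-37337131, - strand): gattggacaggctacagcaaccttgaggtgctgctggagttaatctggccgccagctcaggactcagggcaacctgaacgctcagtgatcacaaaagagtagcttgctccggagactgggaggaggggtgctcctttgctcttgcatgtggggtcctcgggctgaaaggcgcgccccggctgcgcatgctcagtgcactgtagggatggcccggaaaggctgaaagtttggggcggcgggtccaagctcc
Evc2 (chr5:37338228-37338477, + strand): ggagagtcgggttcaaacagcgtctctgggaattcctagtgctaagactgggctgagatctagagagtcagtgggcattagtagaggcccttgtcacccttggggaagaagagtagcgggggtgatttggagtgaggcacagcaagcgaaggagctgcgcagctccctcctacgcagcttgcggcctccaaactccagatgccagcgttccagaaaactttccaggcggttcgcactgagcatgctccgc
G and C made up 60.8% of the Evc stretch and 57.2% of the Evc2 stretch.

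RFX factors, the transcription factors that switch on ciliary genes from nematodes to mammals, bind a palindrome called the X-box. Promoters were searched for an X-box-like motif, GTNNCCNNGGNNAC, which is its own reverse complement and so is read alike on both strands. A window ran over 300 bases, 250 before and 50 after the annotated start (RefSeq, GRCm38.p6), and 34 of the 38 genes had at least 1 window. The motif was found in 8 of the 36 windows of these genes (22.2%), against 1.88% of all 32851 promoter windows. The 8 genes were Bbs1, Bbs4, Bbs7, Ift57, Mks1, Tctn1, Tctn2 and Wdr19, and their sites are shown with the motif in capitals and up to 8 bases on either side.
Bbs1 (chr19:4906605-4906634, - strand): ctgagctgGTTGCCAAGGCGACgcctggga
Bbs4 (chr9:59353464-59353493, - strand): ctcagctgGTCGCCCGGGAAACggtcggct
Bbs7 (chr3:36613489-36613518, - strand): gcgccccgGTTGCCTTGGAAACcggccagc
Ift57 (chr16:49699199-49699228, + strand): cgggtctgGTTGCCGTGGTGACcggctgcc
Mks1 (chr11:87853183-87853212, + strand): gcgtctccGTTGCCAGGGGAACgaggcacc
Tctn1 (chr5:122264411-122264432, - strand): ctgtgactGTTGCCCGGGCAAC
Tctn2 (chr5:124598679-124598708, + strand): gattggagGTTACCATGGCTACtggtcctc
Wdr19 (chr5:65199654-65199683, + strand): tttgcacgGTCTCCTGGGTGACgagaacgc
Neither Evc nor Evc2 held this motif in its window. The letters GACCACCCA or TGGGTGGTC, a Gli-type motif, were in none of the windows of the 38 genes and in 0.253% of all windows. A match describes letters in a window and not a site in use.

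Against GNPs, ciliary genes were mostly higher in the MBs. Of the 36 genes, 20 were higher, 4 were lower and 12 were not called, with a median log2 fold change of 0.98 and a range of -1.04 to 4.78. Over all genes 18.7% were called higher and 18.6% lower, with a median of 0. The 20 higher (55.6%) thus exceeded the background share and the 4 lower (11.1%) did not. In the MBs 45.6% of all genes averaged above 5, against 83.3% of the 36. The background shares given here and below therefore do not describe expressed genes alone. With a level filter (above 5 in at least 2 samples), 21 of 33 genes were higher and 4 lower. Among all genes that passed this filter 3201 were higher and 2795 lower, so 53.4% of the called genes were higher. How many genes passed the filter is not given here, so these counts yield no background share. Without GNP sample CGNP_2705, 2 were called lower in place of 4, because Ift20 and Arl3 no longer passed. The higher genes were both EVC genes, both dynein-2 genes, 4 of 5 in the transition zone and basal body, 5 of 10 in IFT-B, 3 of 6 in IFT-A, 3 of 7 in the BBSome and 1 of 4 among membrane factors.

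Against cerebellum the pattern was more divided. Of the 36 genes, 16 were higher in the MBs (44.4%, against a background of 22.2%), 7 were lower (19.4%, against 21.8%) and 13 were not called, with a median log2 fold change of 0.30, or 0.539 with the probe set of highest signal of each gene. Without cerebellum sample WC_2646, which leaves 1 cerebellum sample, Ift27, Wdr35, Ttc21b, Tulp3, Ttc8, Cep290 and Mks1 lost the call. Fewer of all genes were called higher in that setting too, and the median of the 36 was then 0.369. Those that stayed higher were Evc, Evc2, Ofd1, Dync2h1, Dync2li1, Ift52, Ift74, Ift140 and Gpr161. In the BBSome 1 of 7 was higher (14.3%, against 22.2%) and 3 were lower (42.9%, against 21.8%), with a median of -0.53. Ift27 and Tulp3 each lost the call without any 1 of 8 samples, and Ift20 without cerebellum sample WC_2647. Both comparisons share the same MBs. Side by side, 14 genes were called higher in both, 4 lower in both and 8 in neither, and Ift172 alone was called in opposite directions.

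**Figure D1:**
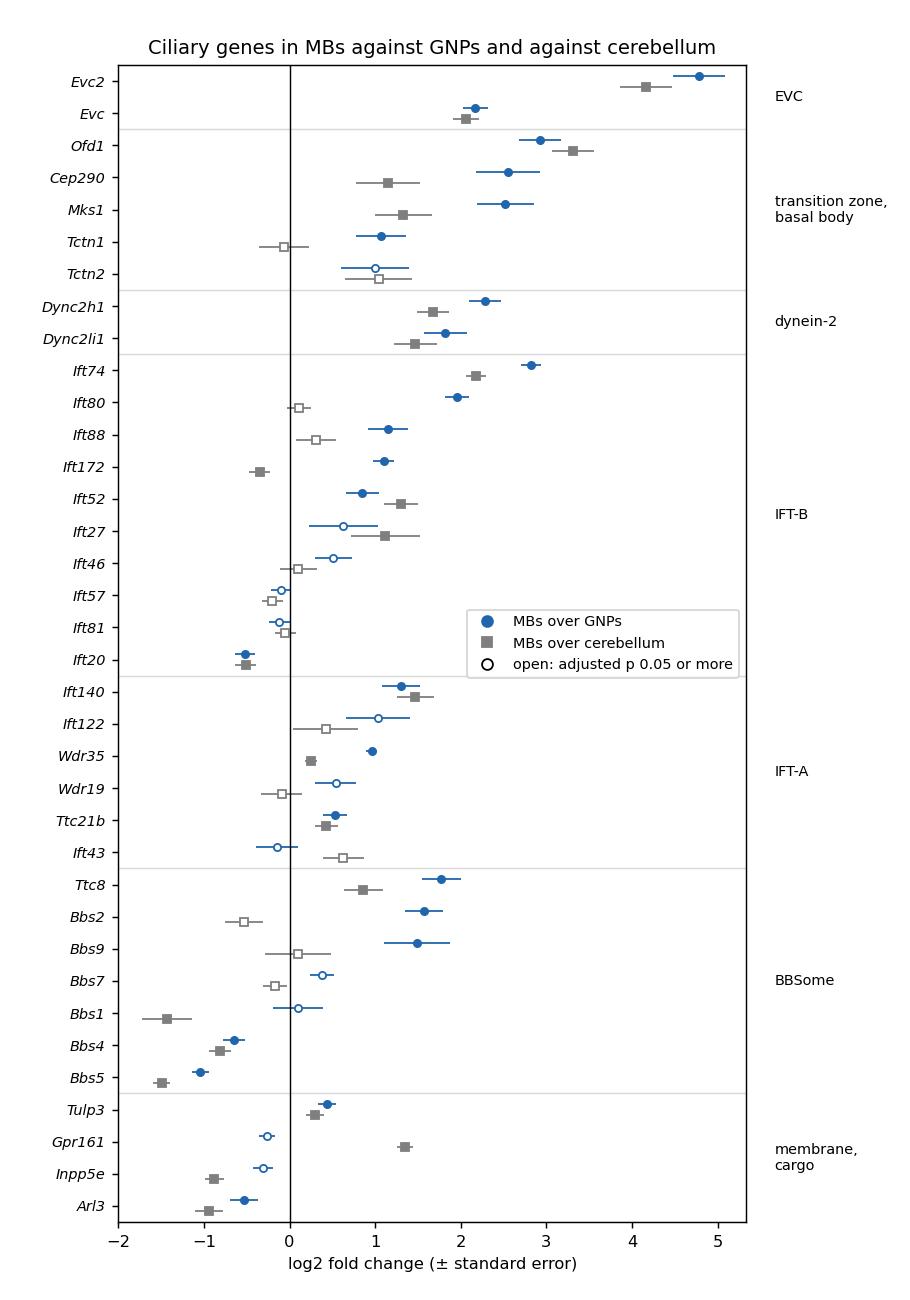
Log2 fold change (horizontal axis, with the standard error) of each of the 36 ciliary genes in 8 MBs over 2 GNP samples (blue circles) and over 2 cerebellum samples (grey squares), grouped by complex, with filled symbols for genes past the test. Evc2 lies farthest to the right in both comparisons, and Bbs5 farthest to the left.

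Evc2 had the largest change of the ciliary genes. Evc and Evc2 encode a pair of transmembrane proteins that form a ring just above the transition zone and bind Smo when SHH signals; their loss causes Ellis-van Creveld syndrome in humans. Evc2 had a lowest, median and highest level of 7.08, 7.55 and 8.40 in the 8 MBs, 2.85 in both GNP samples, and 3.38 and 3.56 in cerebellum. Every MB lay more than 3 log2 units above every sample of normal brain. The log2 fold change was 4.78 against GNPs (standard error 0.303, adjusted p = 1.64e-06 from limma) and 4.16 against cerebellum (adjusted p = 2.24e-06 from limma). The GNP level lay within 1 log2 unit of the floor, so the difference from GNPs may be larger than measured.

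Evc is read by 2 probe sets that disagree. In one the MBs stood at 6.38 to 7.48, GNPs at 2.76 and 2.51, and cerebellum at 3.02 and 2.76. In the other every sample lay between 3.34 and 3.71, with no gap between the groups. Their mean gave a log2 fold change of 2.17 against GNPs (adjusted p = 2.76e-06 from limma) and 2.06 against cerebellum (adjusted p = 2.1e-06), whereas the brighter probe set alone gave 4.33 and 4.08. The size of the Evc change therefore rests on the choice of probe set, and the direction was the same in the mean and in the brighter probe set. Neither EVC gene was called between GNPs and cerebellum (log2 fold change -0.11 for Evc and -0.62 for Evc2).

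The partners that hold the EVC complex in place were measured too. Efcab7, which with Iqce tethers Evc and Evc2 at the ciliary base, stood at 8.04, 8.50 and 8.86 (lowest, median and highest) in the MBs, 5.39 and 4.94 in GNPs, and 4.62 and 4.75 in cerebellum. The difference of 3.36 on the log2 scale against GNPs (adjusted p = 6.5e-07 from limma) and 3.84 against cerebellum (adjusted p = 1.17e-07) was the largest among 53 further ciliary genes measured. Iqce had smaller log2 fold changes of 0.57 and 0.44 (adjusted p = 0.0119 and 0.0367).

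**Figure D2:**
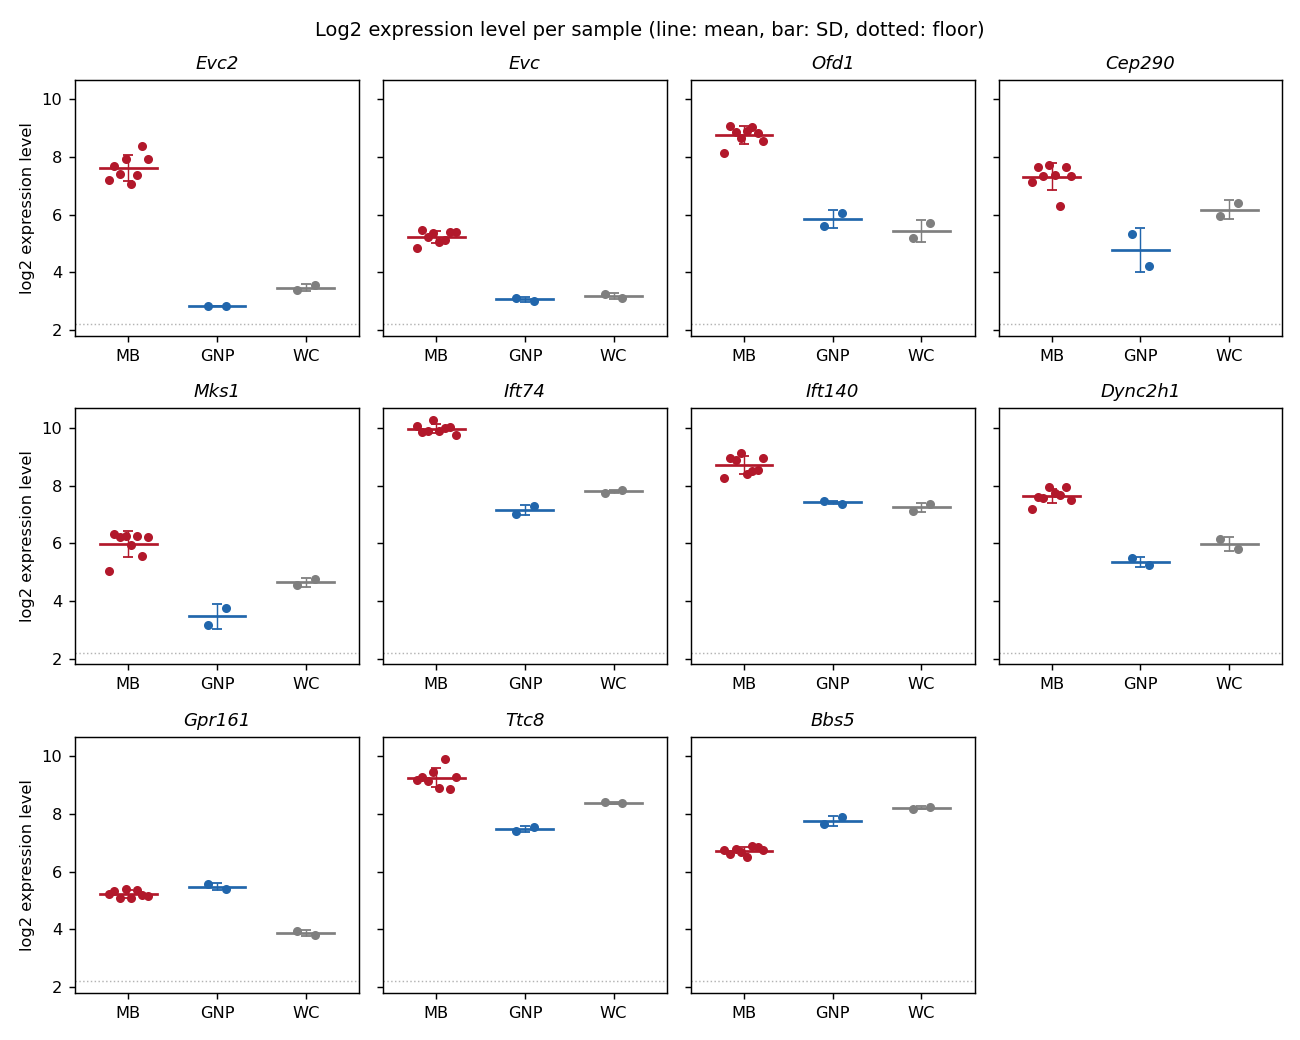
Log2 expression level (vertical axis) per sample for 11 ciliary genes in 8 MBs (red), 2 GNP samples (blue, GNP) and 2 cerebellum samples (grey, WC), with the group mean (line), the SD (bar) and the floor of 2.2 (dotted). MBs sit above both tissues for Evc2, Evc, Ofd1, Mks1, Ift74, Ift140, Dync2h1 and Ttc8, close to GNPs for Gpr161, and below both for Bbs5.

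Of the 5 basal body and transition zone genes, 4 were higher than in GNPs (80%, against 18.7% of all genes). Against cerebellum 3 were higher (60%, against 22.2%). Ofd1, on the X chromosome, encodes a protein of the distal centriole and of centriolar satellites. It stood at 8.13, 8.85 and 9.07 (lowest, median and highest) in the MBs, 5.62 and 6.06 in GNPs, and 5.18 and 5.72 in cerebellum. The MBs did not overlap either tissue. Ofd1 changed by 2.92 log2 units relative to GNPs (standard error 0.245, adjusted p = 1.04e-05 from limma) and by 3.31 relative to cerebellum (adjusted p = 2.52e-06).

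Cep290, which links the transition zone membrane to the axoneme, stood at 6.31, 7.37 and 7.71 in the MBs, 5.32 and 4.23 in GNPs, and 5.95 and 6.41 in cerebellum. Tumor MB_1206, the lowest MB, lay below one cerebellum sample. The log2 fold change was 2.55 against GNPs (standard error 0.376, adjusted p = 4.23e-04 from limma) and 1.15 against cerebellum (adjusted p = 0.0314), and the second was 0.92 (adjusted p = 0.241) without cerebellum sample WC_2646 and 1.38 (adjusted p = 0.0714) without WC_2647.

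Mks1, a B9-domain protein of the gate, stood at 5.02, 6.23 and 6.32 in the MBs, 3.16 and 3.76 in GNPs, and 4.54 and 4.76 in cerebellum, with no overlap between MBs and either tissue. Mks1 changed by 2.52 log2 units relative to GNPs (standard error 0.331, adjusted p = 2.03e-04 from limma) and by 1.33 relative to cerebellum (adjusted p = 0.00809, or 0.0767 without cerebellum sample WC_2646). The tectonic genes Tctn1 and Tctn2, which encode further proteins of the gate, changed less. Tctn1 was higher than in GNPs (1.07, adjusted p = 0.0153) but not called against cerebellum (-0.06), and lost its call without either GNP sample. Tctn2 had values of 1.0 and 1.04 that did not pass (adjusted p = 0.0754 and 0.059), and it varied most among the MBs, between 3.84 and 5.48.

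Further transition zone genes, listed beside the 38, gave a similar count. Of 14 measured, 9 were higher (64.3%, against 18.7% of all genes) and 1 lower (7.14%, against 18.6%) than in GNPs. Against cerebellum 7 were higher (50%, against 22.2%) and 1 lower (7.14%, against 21.8%). The largest changes against GNPs were in Tmem231 and Cc2d2a, both of which encode parts of the gate. Tmem231 stood at 6.44 to 7.43 in the MBs, 4.24 and 3.86 in GNPs, and 5.41 and 5.49 in cerebellum, which gave a log2 difference of 2.91 against GNPs and 1.51 against cerebellum. Cc2d2a had log2 fold changes of 2.26 and 0.79, both past the test. Ahi1 was lower in both comparisons (-0.49 and -1.14), the first of which was 0.11 and not called with the probe set of highest signal (adjusted p = 0.736). Tctn3 and Tmem17 lost their calls against GNPs under quantile normalization and under the median shift, which left 7 higher.

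Of the motors of IFT, the dynein-2 genes were mostly higher in the MBs and the kinesin-2 genes lower than in GNPs. Dync2h1, the heavy chain of the return motor dynein-2, stood at 7.19, 7.62 and 7.96 in the MBs, 5.48 and 5.24 in GNPs, and 6.15 and 5.79 in cerebellum. Its log2 fold change was 2.28 against GNPs (standard error 0.187, adjusted p = 8.81e-06 from limma) and 1.67 against cerebellum (adjusted p = 4.56e-05), with no overlap of the groups. Dync2li1, its light intermediate chain, was higher by 1.82 and 1.47. Among further dynein-2 subunits Wdr60 (1.57 and 0.78) and Wdr34 (0.93 and 1.54) were higher in both comparisons, the second value of Wdr60 failing the test under quantile normalization (adjusted p = 0.0569) and the median shift (adjusted p = 0.0549), and Tctex1d2 was lower than in GNPs (-0.66).

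All 4 measured genes of the outward motor kinesin-2 were lower than in GNPs, where 18.6% of all genes were lower. Of the 4, 2 were lower than in cerebellum (50%, against 21.8% of all genes). This group was singled out after its values were seen. Kif3a, a motor subunit, stood at 7.79 to 8.20 in the MBs, 8.82 and 8.72 in GNPs, and 8.72 and 8.81 in cerebellum, which gave a log2 difference of -0.72 in both comparisons (adjusted p = 2.03e-04 and 1.43e-04 from limma). With the probe set of highest signal Kif3a was not called, at -0.20 and -0.26 (adjusted p = 0.523 and 0.348). Under quantile normalization and the median shift all 4 genes were still lower than in GNPs. Kifap3, the adaptor of the same motor, had log2 fold changes of -1.18 and -1.60. The partner motor subunit Kif3b was lower than in GNPs (-0.94, adjusted p = 0.00235) and not called against cerebellum (-0.16). Kif17, an accessory motor, lay near the floor in the MBs, at 2.43 to 2.44.

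**Figure D3:**
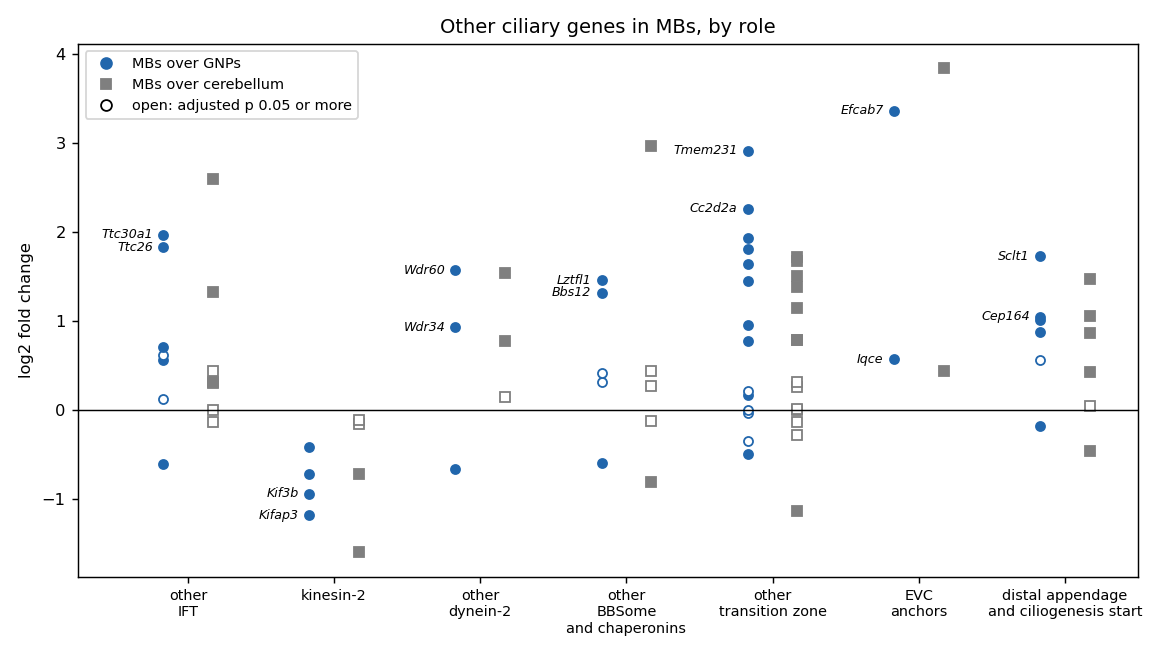
Log2 fold change (vertical axis) of further ciliary genes in 8 MBs over 2 GNP samples (blue circles) and over 2 cerebellum samples (grey squares) by role, with filled symbols past the test and the names of the 2 genes of each role that differ most from GNPs. The kinesin-2 genes all lie below 0, and Efcab7 lies highest.

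Within the IFT trains the changes were unequal from subunit to subunit. Of 10 IFT-B genes, 5 were higher (50%, against 18.7% of all genes) and 1 lower (10%, against 18.6%) than in GNPs (median 0.74). Against cerebellum 3 were higher (30%, against 22.2%) and 2 lower (20%, against 21.8%), with a median of 0.11. The shares against cerebellum were thus near those of all genes. Ift74, which with Ift81 forms the module of IFT-B that binds tubulin, changed most. It stood at 9.77, 9.96 and 10.28 in the MBs, 7.03 and 7.28 in GNPs, and 7.76 and 7.84 in cerebellum, and the groups did not overlap. This amounted to a log2 fold change of 2.82 against GNPs (standard error 0.115, adjusted p = 7.94e-08 from limma) and 2.18 against cerebellum (adjusted p = 2.24e-07).

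Its partner Ift81 gave no such difference. The log2 fold change of Ift81 was -0.12 against GNPs and -0.05 against cerebellum, neither past the test (adjusted p = 0.549 and 0.91). One of the probe sets averaged for Ift81 lay near the floor in most samples, at 2.24 to 2.51, and the other stood at 5.99 to 6.86 in the MBs, 6.86 and 6.68 in GNPs, and 6.59 and 6.64 in cerebellum. The probe set of highest signal gave -0.26 and -0.14, also not called.

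Ift80 and Ift172 encode peripheral subunits of IFT-B, and they were low in GNPs rather than high in the MBs. Ift80 stood at 6.86 to 7.46 in the MBs, 5.0 and 5.12 in GNPs, and 6.91 and 6.90 in cerebellum. Ift80 changed by 1.96 against GNPs (adjusted p = 3.58e-06) and differed by 0.11 from cerebellum (adjusted p = 0.666). Ift172 stood at 7.50 to 7.95 in the MBs, 6.70 and 6.40 in GNPs, and 7.93 and 8.08 in cerebellum, and was called higher than in GNPs (1.10) and lower than in cerebellum (-0.35, adjusted p = 0.0402). The second call was lost without any single one of 8 samples (6 MBs and both cerebellum samples), with adjusted p of 0.0533 to 0.281 then.

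Among the other IFT-B genes, Ift88, whose loss removes cilia in mice, was higher than in GNPs by 1.15 (adjusted p = 0.0028) and differed from cerebellum by 0.31 (adjusted p = 0.352). Ift52 was higher in both comparisons (0.85 and 1.30), the first lost without GNP sample CGNP_2698. Ift27, a small GTPase of the train needed for export of receptors by the BBSome, was called only against cerebellum (1.12, adjusted p = 0.0452), and no longer with the probe set of highest signal (0.75, adjusted p = 0.168). Ift20, which also acts at the Golgi, was lower in both (-0.52 and -0.51). Ift46 (0.51 and 0.10) and Ift57 (-0.10 and -0.20) were not called in either.

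IFT-A brings membrane receptors into the cilium and is needed for return transport. It had 3 of 6 genes higher (50%) and none lower in each comparison. Of all genes, 18.7% were higher against GNPs and 22.2% against cerebellum. The medians of IFT-A were 0.75 against GNPs and 0.42 against cerebellum. The largest change among its genes against cerebellum was in Ift140, a core subunit. Ift140 stood at 8.26, 8.73 and 9.14 in the MBs, 7.46 and 7.37 in GNPs, and 7.12 and 7.36 in cerebellum, with no overlap. Ift140 changed by 1.30 log2 units relative to GNPs (standard error 0.22, adjusted p = 0.00104 from limma) and by 1.47 relative to cerebellum (adjusted p = 3.29e-04).

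Wdr35 and Ttc21b, peripheral IFT-A subunits, each had a probe set at the floor that drew the mean change towards 0. Wdr35 was higher by 0.96 and 0.25, and in its bright probe set the MBs stood at 7.99 to 8.41, GNPs at 6.22 and 6.18, and cerebellum at 7.33 and 7.71. Ttc21b was higher by 0.53 and 0.43, and its bright probe set gave 1.05 and 0.84. The call of Ttc21b against GNPs was lost without GNP sample CGNP_2705. Against cerebellum both calls were lost when each array was shifted to the same median and after quantile normalization. Ift43 was not called (-0.15 and 0.63). The core subunits Ift122 (1.03 and 0.42) and Wdr19 (0.54 and -0.09) were not called either, but with the probe set of highest signal Ift122 was higher than in GNPs by 1.18 (adjusted p = 0.00713) and Wdr19 by 0.94 (adjusted p = 0.0145).

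The BBSome, a coat of 8 proteins of which 7 were followed here through their genes, split between genes that rose and genes that fell. Against GNPs 3 of the 7 were higher (42.9%, against 18.7% of all genes) and 2 lower (28.6%, against 18.6%), with a median of 0.38. The gene of the remaining protein, Bbip1, was among the further ciliary genes. Bbip1 was lower than in GNPs (-0.60, adjusted p = 0.0011 from limma) and not called against cerebellum (-0.12). Ttc8, also known as Bbs8, stood at 8.87, 9.23 and 9.91 in the MBs, 7.42 and 7.56 in GNPs, and 8.41 and 8.37 in cerebellum, with no overlap. Its log2 fold change was 1.77 against GNPs (standard error 0.228, adjusted p = 1.77e-04 from limma) and 0.86 against cerebellum (adjusted p = 0.0108, or 0.0645 and 0.0745 without cerebellum sample WC_2646 or WC_2647).

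Bbs5, the subunit that binds phosphoinositides, fell most among the 36 genes. It stood at 6.50, 6.75 and 6.90 in the MBs, 7.65 and 7.89 in GNPs, and 8.18 and 8.26 in cerebellum, and the groups did not overlap. The log2 fold change was -1.04 against GNPs (standard error 0.0994, adjusted p = 2.49e-05 from limma) and -1.49 against cerebellum (adjusted p = 1.19e-06). Bbs4 was also lower in both (-0.65 and -0.81), but with the probe set of highest signal its difference from GNPs was -0.42 and did not pass (adjusted p = 0.0787). One of the other probe sets of Bbs4 lay near the floor throughout, at 2.34 to 2.43.

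Bbs2 and Bbs9 were called higher against GNPs and not against cerebellum. Bbs2 stood at 6.55 to 7.56 in the MBs, 5.63 and 5.56 in GNPs, and 7.62 and 7.79 in cerebellum, which gave a log2 difference of 1.57 against GNPs (adjusted p = 3.1e-04) and -0.53 against cerebellum (adjusted p = 0.0788). Bbs9 was higher than in GNPs by 1.49 (adjusted p = 0.0119), and by 0.71 (adjusted p = 0.224) without GNP sample CGNP_2705, which lay at 3.05 against 4.60 in the other. Bbs1 differed from GNPs by 0.10 and was lower than in cerebellum (-1.43, adjusted p = 0.00257). Bbs7 was called in neither comparison (0.38 and -0.17).

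Of the membrane and cargo factors, Gpr161 separated the tissues most clearly. This receptor keeps the SHH pathway off in the absence of ligand and leaves the cilium when the pathway is on. Its mean level was 5.08, 5.21 and 5.40 (lowest, median and highest) in the MBs, 5.57 and 5.40 in GNPs, and 3.94 and 3.81 in cerebellum. One of its 2 probe sets was at the floor of 2.20 in every sample, and in the other the MBs stood at 7.96 to 8.60, GNPs at 8.94 and 8.60, and cerebellum at 5.68 and 5.43. Before rounding, the mean level of every MB lay below both GNP samples, the highest MB matching the lower GNP sample only after rounding. All MBs lay far above cerebellum.

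The mean log2 fold change of Gpr161 was 1.35 against cerebellum (standard error 0.0947, adjusted p = 1.71e-06 from limma) and -0.26 against GNPs (adjusted p = 0.057), or 2.70 and -0.52 in the bright probe set. With each array shifted to the same median, the difference of the mean from GNPs was called (adjusted p = 0.0107). Tulp3, which carries Gpr161 and other receptors into the cilium with IFT-A, was higher by 0.44 and 0.30 over 3 probe sets, 2 of them near the floor, and its bright probe set gave 1.34 (adjusted p = 0.0017) and 0.84 (adjusted p = 0.0191). Tulp3 lost both calls under quantile normalization and under the median shift, and the call against GNPs without GNP sample CGNP_2698.

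The 2 enzymes of the ciliary membrane list were lower than in cerebellum. Arl3, a GTPase that releases lipid-anchored cargo inside the cilium, was lower in both comparisons, at -0.53 against GNPs (adjusted p = 0.0308, lost without either GNP sample) and -0.94 against cerebellum (adjusted p = 0.00101). Inpp5e, the phosphatase that sets the lipid makeup of the ciliary membrane, was lower than in cerebellum (-0.88, adjusted p = 1.05e-04). Its difference from GNPs of -0.31 did not pass (adjusted p = 0.0519). That difference was called with the probe set of highest signal (-0.40, adjusted p = 0.00181 from limma). It was also called under quantile normalization (-0.39, adjusted p = 0.0195) and the median shift (-0.43, adjusted p = 0.011).

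The normal tissues differed from each other too. Between GNPs and cerebellum 1 of the 36 genes was higher in GNPs (2.78%, against 14.9% of all genes), 11 were lower (30.6%, against 13.6%) and 24 were not called, with a median log2 fold change of -0.49. Gpr161 was the gene higher in GNPs (1.61, adjusted p = 6.2e-06 from limma, or 3.22 in its bright probe set). Those lower in GNPs were 5 of the 7 BBSome genes (Bbs1, Bbs2, Bbs5, Bbs7 and Ttc8), Ift74, Ift80, Ift172, Wdr35, Inpp5e and Tctn1. The largest were Bbs2 at -2.11 (adjusted p = 3.34e-04), Ift80 at -1.85 (adjusted p = 3.66e-05) and Ift172 at -1.46 (adjusted p = 7.65e-05). The count of 11 was 2 with the methods' t-test after adjustment, 6 without GNP sample CGNP_2705, and 6 without cerebellum sample WC_2646 or WC_2647. Bbs2, Ift80, Ift172, Wdr35 and Gpr161 passed whichever sample was left out, and Tctn1 and Ttc8 lost the call without any 1 of the 4 samples of normal brain. Of the 5 BBSome genes, only Bbs2 kept its call under every alternative other than the t-test. Bbs7 was not called with the probe set of highest signal (-0.92, adjusted p = 0.0727 from limma).

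Set against normal brain as a whole, the 4 samples of GNPs and cerebellum pooled as the study drew them, 18 of the 36 genes were higher in the MBs (50%, against 20% of all genes) and 5 were lower (13.9%, against 16.4%), with a median log2 fold change of 0.57. The range ran over -1.26 for Bbs5 to 4.47 for Evc2.

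Counted by level, 30 of the 36 genes (83.3%) had an average above 5 on the log2 scale in the MBs, while 21 (58.3%) did in GNPs and 26 (72.2%) in cerebellum. Over all genes these shares were 45.6%, 44.5% and 45.1%. Ift81, Wdr19, Ttc21b, Tulp3 and Bbs7 averaged under 5 in the MBs with a probe set near the floor in the mean. Their bright probe sets lay above 5 in every MB, so the count does not show these genes as unexpressed. The mean over the 36 genes was 6.62 to 7.06 in the MBs, 5.81 and 5.76 in GNPs, and 6.24 and 6.27 in cerebellum, and the samples of the 3 groups did not overlap.

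**Figure D4:**
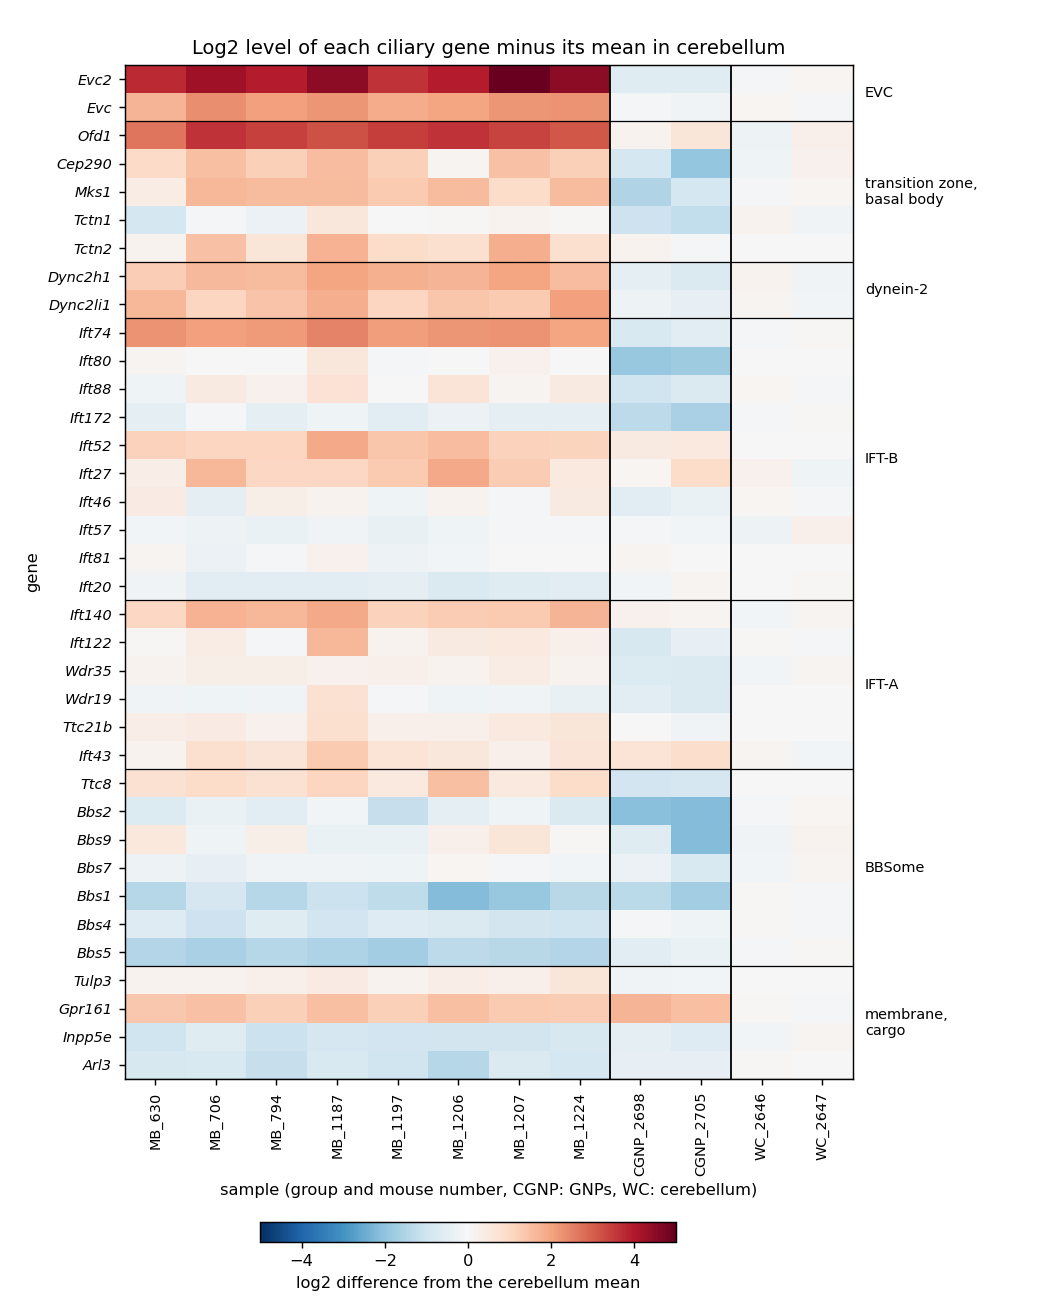
Log2 level of each of the 36 ciliary genes (rows, by complex) in each sample (columns, by group and mouse number) minus the mean of the 2 cerebellum samples, in red where higher and blue where lower. Evc, Evc2, Ofd1 and Ift74 are red in all 8 MBs, Bbs5 is blue in all 8, and Gpr161 is red in the MBs and in both GNP samples.

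The MBs differed among themselves more in these genes than in most. The median SD over the 8 tumors was 0.298 on the log2 scale for the 36 genes and 0.181 for all genes, many of which lie at the floor. Wdr35 had the smallest SD (0.073) and Tctn2 the largest (0.579). The level of Wdr35 averages a bright probe set (7.99 to 8.41 in the MBs) with one at the floor (2.20 to 2.25). This averaging narrows its SD, so Wdr35 is not shown to be the steadiest gene. Tumor MB_1187 had the highest mean level of the 36 genes (7.06) and was the highest of the 8 tumors for 14 of them (38.9%, against 12.1% of all genes) and the lowest for none. Tumor MB_630 had the lowest mean level (6.62) and was the lowest for 12 (33.3%, against 20.3%). Tumor MB_1197 was the lowest for 9 (25%, against 9.43%) and the highest for none. These counts describe single tumors, and the genes are not independent of each other.

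Of the 53 further ciliary genes measured, out of 58 listed, 27 were higher and 14 lower than in GNPs (median 0.56). These were 50.9% and 26.4%, against 18.7% and 18.6% of all genes, so both shares exceeded the background. Against cerebellum 24 were higher (45.3%, against 22.2%) and 7 lower (13.2%, against 21.8%), with a median of 0.31. Besides Efcab7, the largest changes against cerebellum were in Bbs12 and Ttc26. Bbs12, a chaperonin-like protein that helps to assemble the BBSome, was higher by 2.97 against cerebellum and 1.32 against GNPs. Ttc26, an IFT-B subunit also called Ift56, was higher by 2.60 against cerebellum and 1.83 against GNPs. Sstr3, a somatostatin receptor of neuronal cilia, was at the floor in MBs and GNPs (2.21 to 2.22) and at 4.08 and 4.12 in cerebellum. In GNPs against cerebellum, Bbs12 (1.65) and the cargo factor Unc119b (1.58) were higher.

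Genes of the SHH pathway, which signals through the cilium, were read from a further list. Of 11 measured, 7 were higher, none lower and 4 not called against GNPs (median 1.42, with 18.7% of all genes higher), and 7 were higher, 1 lower and 3 not called against cerebellum (median 1.32, with 22.2% of all genes higher). Gli1, the transcription factor that is itself a target of the pathway, stood at 8.65, 8.92 and 9.91 in the MBs, 2.39 and 2.20 in GNPs, and 3.61 and 3.40 in cerebellum. GNPs lay near the floor, so the log2 difference of 6.80 is at least that large, and against cerebellum it was 5.59. Gli2 had log2 fold changes of 5.34 and 4.73, the Hedgehog-binding protein gene Hhip 2.93 and 2.38, and Kif7, which carries Gli factors to the ciliary tip, 1.98 and 2.87. Smo rose by 1.72 and 2.19. The co-receptor gene Cdon was lower than in cerebellum (-2.19). In GNPs against cerebellum, Cdon (-2.20), Gli1 (-1.21) and the co-receptor gene Gas1 (-1.19) were lower.

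Of 6 RFX genes measured, 2 were higher than in GNPs (33.3%, against 18.7% of all genes). They were Rfx1 (0.64) and Rfx3 (0.48), and Rfx3 is a regulator of ciliogenesis in mice. The call of Rfx3 against GNPs was lost under quantile normalization (0.39, adjusted p = 0.0542) and the median shift (0.36, adjusted p = 0.0656), where Rfx4 was called lower. Against cerebellum Rfx7 (1.54) and Rfx3 (0.73) were higher and Rfx4 was lower (-1.26). Among the ciliary genes with a promoter window and a measurement, 2 of the 8 with the X-box-like motif were higher and 1 lower in the MBs than in GNPs, and 16 of the 24 without it were higher and 3 lower.

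Genes that drive resorption of the cilium before division or hold back its assembly, the latter including Ccp110 and Cep97, were measured as 1 list. Many of them also serve mitosis. Of 10, 7 were higher (70%, against 18.7% of all genes) and 3 lower (30%, against 18.6%) than in GNPs (median 0.99). Against cerebellum 7 were higher (70%, against 22.2%) and none lower (median 0.99). Plk1, a mitotic kinase, stood at 7.72, 8.68 and 9.15 in the MBs, 4.66 and 4.85 in GNPs, and 2.45 and 2.20 in cerebellum, which gave a log2 difference of 3.88 against GNPs and, with cerebellum near the floor, of at least 6.31 there. Aurka, the kinase that starts resorption, was higher by 2.13 against GNPs and by at least 3.22 against cerebellum, which was near the floor. Nde1, which limits the length of the cilium, was higher by 2.83 and 2.48. Lower than in GNPs were Tchp (-1.0), whose product activates Aurka, Kif2a (-0.89) and Hdac6 (-0.46). In GNPs against cerebellum Plk1 (at least 2.43), Tchp (1.90) and Kif2a (1.13) were higher.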

How the data were processed

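RNA of 8 MBs, 2 GNP and 2 cerebellum samples was hybridised to Affymetrix mouse expression arrays, 1 per sample. The deposited values are log2 signals from the R library affy and GCRMA, by the authors, 1 per probe set (versions not given in the sources used here). Of 45101 probe sets, 64 controls were left out, and 34945 paired with 1 gene, 932 with several and 9160 with none in the probe table. Each gene is represented by the mean over probe sets of its own that lack the suffixes s or x (for 290 genes, the mean of those that carry them), giving 18193 genes with no filter. The fit of limma 3.58.1 (R 4.3.3, lmFit and eBayes) had 3 groups and gave the 3 comparisons between MBs, GNPs and cerebellum, and a fit with 2 groups compared MBs with normal brain. It was tested on simulated data. The number of arrays limits the precision. Samples came from separate mice by number. The ciliary genes and the other lists were chosen with earlier results of these data known. Genes given in every sample were the 5 with the largest change past the test against GNPs and against cerebellum and the one of largest change in each complex; of the other lists, up to 3 per comparison, and further genes were named after their values were seen. Alternatives were other probe set rules, quantile normalization, arrays shifted to a common median, a level filter (above 5 in at least 2 samples), a trend and robust spread, array weights, the methods' t-test, the compared groups only, and each sample left out. Choroid plexus, granule neuron, Purkinje cell and oligodendrocyte markers were also read. Figures were drawn with matplotlib 3.10.9.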

Additional observations from a re-analysis of the deposited data

Results flagged for a closer look

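In 4 instances 1 tumor lay far from the other 7, with a gap above Dixon's critical value of 0.526 of the range for 8 samples. Chance flags about 1 in 20 groups, and 36 genes were looked at. Tumor MB_1187 was highest for Ift80 (7.46, the others 6.86 to 7.14), Ift122 (6.91, the others 5.13 to 5.74) and Wdr19 (5.31, the others 4.17 to 4.45). Every probe set of Ift122 and Wdr19 had its highest MB value in this tumor. Tumor MB_1206 was lowest for Cep290 (6.31, the others 7.15 to 7.71).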

How the results depend on the processing

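Among the 36 genes, no alternative reversed a called value. The median log2 fold change of the 36 genes against GNPs was 1.089 with the probe set of highest signal and 0.86 with arrays shifted to the same median, and it ranged over 0.876 to 1.024 with 1 sample left out. Against cerebellum it was 0.539 with the probe set of highest signal and 0.417 with the level filter. Against normal brain it was 0.813 and 0.724 under the same 2 settings and 0.456 to 0.799 with 1 sample left out. With 1 sample left out, 2 to 5 genes were lower and 17 to 22 higher than in GNPs, and 9 to 18 were higher and 5 to 8 lower than in cerebellum. Between GNPs and cerebellum, 1 to 2 genes were then higher and 6 to 12 lower in GNPs. The higher count there was 2 with the median shift, 2 with only the groups compared, 2 with the methods' t-test after adjustment and 3 before it, and the lower count was 2 with the adjusted t-test. Over all genes that adjusted t-test called 1106 higher and 1105 lower, against 2703 and 2477 from limma. The cause was not tested.

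The median shift moved the median of all genes by -0.117 against GNPs, where 2910 genes were then higher and 4148 lower, in place of 3403 and 3389. Of the genes called, 16 of 24 against GNPs, 14 of 23 against cerebellum, 17 of 23 against normal brain and 5 of 12 between GNPs and cerebellum kept the call under every alternative other than the t-test. No paired analysis was possible because no mouse number is shared between groups. The number of arrays, 2 for each normal tissue, and genes near the floor limit what could be called.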

Other observations

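Further cell type markers were read in the same samples. Mean log2 levels of granule neuron markers were 2.70 to 7.46 in the MBs, 3.47 to 3.78 in GNPs and 11.7 to 11.95 in cerebellum. Purkinje cell markers were at 2.72 to 5.68, 4.05 to 4.27 and 10.21 to 10.35 in MBs, GNPs and cerebellum, and oligodendrocyte markers at 3.46 to 5.41, 4.54 to 5.95 and 9.48 to 9.51. These 3 marker levels were highest in cerebellum, and their part in the differences from cerebellum was not tested. Choroid plexus markers varied between samples of 1 group, at 3.17 to 5.6 in the MBs, 4.82 to 6.42 in GNPs and 4.26 to 7.92 in cerebellum.

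Genes for distal appendages, which dock the centriole to the membrane, and for the start of cilium assembly were grouped after their values were seen. Of these 6, 4 were higher (66.7%, against 18.7% of all genes) and 1 was lower (16.7%, against 18.6%) than in GNPs. The same numbers held against cerebellum, where 22.2% of all genes were higher and 21.8% lower. Sclt1, one of them, had log2 fold changes of 1.73 (adjusted p = 2.39e-07 from limma) and 1.47 (adjusted p = 3.62e-07). Ttbk2, the kinase that starts assembly, had log2 fold changes of -0.18 and -0.46. Of the carriers of lipid-anchored cargo, Pde6d was lower in the MBs in both comparisons (-0.84 and -0.62), and Unc119b was lower than in GNPs (-0.68) and higher than in cerebellum (0.91). Ccp110 and Cep97, which cap the centriole and hold back cilium assembly, were higher than in GNPs (0.82 and 1.01), and Cep97 was also higher than in cerebellum (0.79).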
